A study of Mus musculus with 20 samples.

Results

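The Notch signalling genes followed here are 3 receptors (Notch1, Notch2 and Notch3), 3 ligands (Dll1, Dll3 and Jag1) and 4 transcription factor genes of the Hes and Hey families (Hes1, Hes5, Hey1 and Hes6), 10 of the 35975 genes measured. They were chosen by name, the estimated counts of their transcripts were summed per gene, and all 10 passed the low-count filter that left 18555 genes for testing. RNA came from ES-E14TG2a, an embryonic stem cell line of the mouse, labelled WT or TKO, at D0 (stem cells on gelatin in serum and LIF). Later samples were taken at D2, D4, D6 and D8 of what the labels call NPC differentiation, in plain N2B27 medium on laminin. There were 2 biological replicate libraries for each of the 10 groups and 20 libraries in all. Both genotypes share the line and the media of each day. The labels do not say which genes TKO lacks, nor whether the TKO cells are 1 clone. They call the replicates biological without saying how separate the cultures were, so p-values measure the spread between these libraries, which may be technical in part.

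Notch receptors sit on the cell surface and are activated by Delta-like and Jagged ligands on neighbouring cells. Ligand binding exposes the receptor to ADAM proteases and then to gamma-secretase, and the freed intracellular domain joins the DNA-binding protein RBPJ and Mastermind coactivators at target genes such as Hes1, Hes5 and Hey1. In the developing neural tube the Hes proteins repress proneural genes and hold cells as progenitors, while cells with high proneural activity raise Dll1 and Dll3 and leave to become neurons. Hes6 differs from its relatives in that it is induced by proneural factors and opposes Hes1.

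Values are counts per 1e+06 (CPM) after TMM scaling, a correction for library composition, and the pair of numbers at each day is the pair of replicate libraries. Library totals ran from 26015282 to 38074768 estimated counts. A gene is called higher or lower where edgeR's quasi-likelihood test gave a Benjamini-Hochberg adjusted p under 0.05 over all genes tested, and "rose" and "fell" are kept for such calls. The libraries of WT D0 differed most between replicates (chi-square over its degrees of freedom 27.7, beside 2.93 to 10.7 in the other groups). The DNA methyltransferase gene Dnmt1 separated the genotypes on every day, with group means (± SD, n = 2) from 295 ± 3.09 to 481 ± 4.08 CPM in WT and from 78.7 ± 5.47 to 91.1 ± 7.84 in TKO. Of Dnmt3a and Dnmt3b, read for the same check, Dnmt3b was not low in TKO at D8. The labelled cell states were read from marker lists of 8 genes each, given as summed CPM. Pluripotent stem cell markers summed to 6331 and 6457 in the WT D0 libraries and to 47.5 and 69.9 in the WT D8 libraries. In TKO they summed to 5998 and 6146 at D0 and 1016 and 1068 at D8. At D8 neural progenitor markers summed to 1262 and 1295 in WT and 707 and 711 in TKO, and neuron markers to 3408 and 3447 in WT and 906 and 907 in TKO. In bulk RNA, fewer cells of a type and less RNA per cell cannot be told apart.

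**Figure D1:**
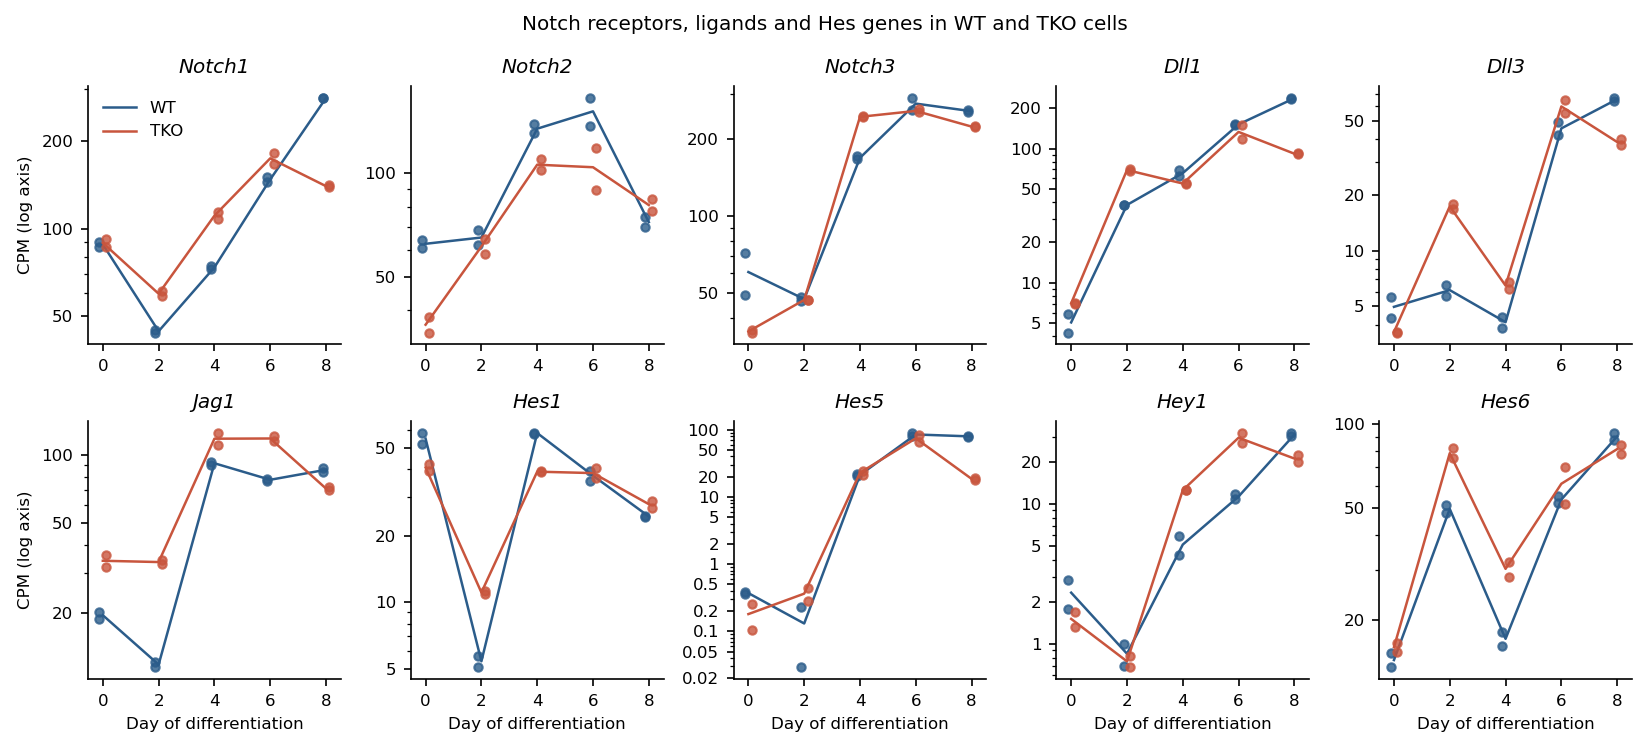
Level of each gene in CPM (log axis) against the day of differentiation, with a point for every library and a line through the means of the 2 libraries of WT (blue) and TKO (red). Hes1 dips at D2 and Hes5 is below 1 CPM until D2 and above 20 CPM in every library at D4, D6 and WT D8, whereas its TKO D8 libraries lie below 20 CPM.

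Notch1, the receptor with the widest known role in neural progenitors, lies on chromosome 2 from 26457903 to 26516663 (minus strand, GRCm38, ENSMUSG00000026923.15). WT levels of Notch1 were 86.6 and 89.9 CPM at D0, 44.9 and 44 at D2, 74.5 and 72.7 at D4, 144 and 151 at D6, 279 and 281 at D8. TKO levels of it were 86.7 and 91.8 CPM at D0, 58.7 and 60.9 at D2, 108 and 114 at D4, 166 and 182 at D6, 141 and 138 at D8. It fell in both genotypes from D0 to D2 and rose at each of the next intervals to D6, and only between D6 and D8 did the genotypes take opposite directions. WT gained over that last interval (0.93 ± 0.056 SE on the log2 scale, adjusted p = 3.07e-10) and TKO lost (-0.32 ± 0.056 SE on the log2 scale, adjusted p = 0.000142). With counts rebuilt from TPM, 4 of these within-genotype steps of Notch1 no longer passed, WT D0 to D2 (-0.34, adjusted p = 0.149), WT D2 to D4 (0.37, adjusted p = 0.104), TKO D4 to D6 (0.45, adjusted p = 0.0586) and TKO D6 to D8 (-0.21, adjusted p = 0.385). Those counts start from TPM summed over all transcripts of the gene, very short ones included.

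Notch2, a receptor of broad expression, lies on chromosome 3 from 98013527 to 98150361. WT libraries held Notch2 at 60.7 and 64 CPM at D0, 68.3 and 61.8 at D2, 131 and 139 at D4, 166 and 137 at D6, 69.6 and 74.6 at D8. TKO libraries held it at 34.4 and 38.1 CPM at D0, 58.2 and 64.3 at D2, 102 and 109.9 at D4, 119 and 89.6 at D6, 77.5 and 84.2 at D8. The WT profile is a hump: Notch2 rose from D2 to D4 (1.05 ± 0.11 SE on the log2 scale, adjusted p = 2.1e-07) and fell from D6 to D8 (-1.07 ± 0.11 SE on the log2 scale, adjusted p = 2.67e-07). In TKO it began lower and rose over the first interval as well (0.76 ± 0.12 SE on the log2 scale, adjusted p = 3.31e-05). It fell less over the last (-0.37 ± 0.11 SE on the log2 scale, adjusted p = 0.0108). That fall no longer passed without TKO D6 replicate 1 (-0.15, adjusted p = 0.303) or TKO D8 replicate 1 (-0.31, adjusted p = 0.0948). The 2 TKO D6 libraries lay far apart for this gene.

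Notch3, known from vascular smooth muscle and also expressed in neural progenitors, lies on chromosome 17 from 32120820 to 32166852. Notch3 in WT measured 72 and 49.1 CPM at D0, 46.7 and 48.3 at D2, 171 and 166 at D4, 259.8 and 289 at D6, 259 and 254 at D8. Notch3 in TKO measured 35.2 and 35.8 CPM at D0, 47 and 47.2 at D2, 243 and 245 at D4, 260.5 and 254 at D6, 223 and 224 at D8. From D2 to D4 it rose more than the other receptors did in either genotype, in WT (1.83 ± 0.11 SE on the log2 scale, adjusted p = 9.68e-11) and in TKO (2.37 ± 0.11 SE on the log2 scale, adjusted p = 4.66e-12); the difference between receptors was not tested. From D6 to D8 it did not pass in either genotype. The WT D0 pair is wide, and the small fall of WT from D0 to D2 (log2 fold change -0.35) no longer passed without WT D0 replicate 1 (-0.06, adjusted p = 0.467) or WT D2 replicate 1 (-0.33, adjusted p = 0.0606).

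Dll1, the main Delta ligand of the neural tube, lies on chromosome 17 from 15367354 to 15376872 (minus strand). The WT values of Dll1 were 5.87 and 4.26 CPM at D0, 38 and 38.1 at D2, 68.8 and 62.6 at D4, 150.2 and 154 at D6, 239.9 and 236 at D8. The TKO values of Dll1 were 7.11 and 6.96 CPM at D0, 68 and 70.7 at D2, 54.4 and 55.6 at D4, 117 and 149 at D6, 92.6 and 90.9 at D8. With Hes6 it was 1 of 2 members that rose in WT from D0 to D2, by 7.51-fold, and it rose 9.85-fold in TKO. WT then rose at every interval, while TKO fell from D2 to D4 (-0.33 ± 0.095 SE on the log2 scale, adjusted p = 0.00545), rose to D6 and fell again to D8 (-0.54 ± 0.092 SE on the log2 scale, adjusted p = 0.000109). With counts rebuilt from TPM the TKO step from D2 to D4 was -0.21 (adjusted p = 0.17). Of the 31-mers of Dll1, 17.9% also lie in the opposite-strand gene A930024N18Rik, which had no transcript among those matched in the deposited counts. Whether strand was used in counting is not given in the sources used here, so reads from that gene may have been counted as Dll1.

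Dll3, a Delta relative that acts inside the ligand-sending cell rather than as an activator, lies on chromosome 7 from 28293553 to 28302238. WT cells showed Dll3 at 4.34 and 5.62 CPM at D0, 6.55 and 5.71 at D2, 3.82 and 4.41 at D4, 49.2 and 41.7 at D6, 66.4 and 64.1 at D8. TKO cells showed it at 3.62 and 3.66 CPM at D0, 17.8 and 16.8 at D2, 6.75 and 6.21 at D4, 54.9 and 64.4 at D6, 39.9 and 36.9 at D8. WT held it at a few CPM until D4 and raised it 11-fold from D4 to D6. TKO showed an added early peak, rising from D0 to D2 (2.25 ± 0.14 SE on the log2 scale, adjusted p = 4.72e-10), falling to D4 (-1.41 ± 0.12 SE on the log2 scale, adjusted p = 2.15e-08) and rising 9.18-fold to D6. The D0 to D2 step of WT did not pass, at a log2 fold change of 0.29 (adjusted p = 0.0983).

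Jag1, the Jagged ligand of progenitor domains, lies on chromosome 2 from 137081456 to 137116644. Jag1 levels in WT were 20.3 and 18.9 CPM at D0, 11.5 and 12.2 at D2, 93.3 and 90.1 at D4, 78.4 and 76.7 at D6, 84.3 and 87.4 at D8. Jag1 levels in TKO were 32 and 36.1 CPM at D0, 34.4 and 32.8 at D2, 110.2 and 125 at D4, 116 and 120.4 at D6, 70.0 and 71.9 at D8. Its main rise fell between D2 and D4, 7.71-fold in WT and 3.5-fold in TKO from a higher start. From D0 to D6 both TKO libraries lay above both WT libraries on every day, and at D8 both lay below them. TKO lost Jag1 from D6 to D8 (-0.73 ± 0.069 SE on the log2 scale, adjusted p = 1.38e-07).

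Hes1, a repressor that oscillates in stem cells and progenitors, lies on chromosome 16 from 30064384 to 30067796. WT cells held Hes1 at 51.9 and 58.1 CPM at D0, 5.07 and 5.74 at D2, 58.6 and 58 at D4, 39.3 and 35.5 at D6, 24.4 and 24.5 at D8. TKO cells held it at 42.2 and 39.2 CPM at D0, 11.3 and 10.9 at D2, 39.2 and 38.9 at D4, 40.5 and 36.4 at D6, 26.8 and 28.8 at D8. Hes1 fell 10.1-fold in WT between D0 and D2 and came back 10.7-fold by D4, and in TKO the same steps were 3.67-fold down and 3.52-fold up. The difference between these steps was not tested. WT fell from D4 to D6 (-0.64 ± 0.077 SE on the log2 scale, adjusted p = 1.7e-06) and from D6 to D8 (-0.61 ± 0.08 SE on the log2 scale, adjusted p = 3.81e-06). The TKO step from D4 to D6 did not pass at -0.02 (SE 0.078) and TKO fell after it (-0.47 ± 0.079 SE on the log2 scale, adjusted p = 9.96e-05).

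Hes5, the Hes gene most tied to Notch activity in neural progenitors, lies on chromosome 4 from 154960923 to 154962371 (plus strand). The level of Hes5 in WT was 0.383 and 0.357 CPM at D0, 0.232 and 0.0291 at D2, 22.2 and 20.1 at D4, 79 and 90.3 at D6, 78.6 and 79.6 at D8. The level of Hes5 in TKO was 0.104 and 0.256 CPM at D0, 0.446 and 0.281 at D2, 21.5 and 24.1 at D4, 66.1 and 82.2 at D6, 19.3 and 17.7 at D8. At D0 and D2 the 8 libraries held 1 to 13 counts of it each, and by D4 it had risen a fitted 176-fold in WT and 61-fold in TKO, sizes that rest on those few counts. At D4 and at D6 the libraries of the genotypes overlapped. From D6 to D8 WT did not pass (log2 fold change -0.10, adjusted p = 0.477), and TKO fell 4.01-fold (-2.0 ± 0.12 SE on the log2 scale, adjusted p = 9.08e-10). The WT step from D0 to D2, between levels of under 1 CPM, was called lower (log2 fold change -1.63, adjusted p = 0.0472) but not under 11 of the 28 alternatives. Of these 9 leave out 1 library: without WT D0 replicate 1, WT D0 replicate 2, WT D2 replicate 2 (the smallest change of these, -0.69 with adjusted p = 0.438), or either library of WT D4, WT D8 or TKO D8. Of the 31-mers of Hes5, 25.7% lie also in the opposite-strand gene Gm20421, with the same limit as for Dll1.

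The start regions of the 3 members with the largest differences between TKO and WT at D8 are shown. Hey1, for which the change from D6 to D8 differed most between genotypes (-1.96), has no window. Each line is the RefSeq window of 300 bases (GRCm38.p6), from 250 bases before to 50 bases after the annotated start, 5′ to 3′ on the strand of the gene. Dll1 has 2 windows, and the one furthest upstream is given. Capitals are on TGGGAA (the core letters of the RBPJ motif) and on CACNAG (the N box bound by Hes proteins), each searched on both strands.
Hes5, chr4:154960673-154960972, plus strand: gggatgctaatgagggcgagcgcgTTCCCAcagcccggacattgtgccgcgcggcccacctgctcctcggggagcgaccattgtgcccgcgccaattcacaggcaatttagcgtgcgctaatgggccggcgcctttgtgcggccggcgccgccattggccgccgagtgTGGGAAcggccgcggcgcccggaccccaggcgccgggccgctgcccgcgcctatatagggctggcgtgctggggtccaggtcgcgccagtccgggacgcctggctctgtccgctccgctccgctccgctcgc
Dll1, chr17:15376883-15377182, minus strand: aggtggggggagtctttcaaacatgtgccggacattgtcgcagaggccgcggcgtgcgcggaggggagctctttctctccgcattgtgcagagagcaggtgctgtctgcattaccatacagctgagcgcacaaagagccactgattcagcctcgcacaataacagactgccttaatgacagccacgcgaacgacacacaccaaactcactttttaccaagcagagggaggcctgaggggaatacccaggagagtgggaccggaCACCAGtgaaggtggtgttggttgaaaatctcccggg
Notch1, chr2:26503773-26504072, minus strand: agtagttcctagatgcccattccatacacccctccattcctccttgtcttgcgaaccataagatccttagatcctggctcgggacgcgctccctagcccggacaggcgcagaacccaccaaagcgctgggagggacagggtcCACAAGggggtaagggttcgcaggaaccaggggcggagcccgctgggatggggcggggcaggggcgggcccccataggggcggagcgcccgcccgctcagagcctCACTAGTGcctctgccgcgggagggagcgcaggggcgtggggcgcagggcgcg

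The Hes5 window holds TGGGAA 2 times, at 82 bases before the start on the strand of the gene and at 226 bases before it on the other strand, and it was the one window with that motif among those of the 8 members with an entry (Hes1 and Hey1 had none). Over all 32851 windows of this length, 25.6% held TGGGAA and 42.5% held CACNAG. The Dll1 window shown holds CACNAG 1 time, and the other Dll1 window (chr17:15375774-15376073) holds neither motif. The Notch1 window holds CACNAG 3 times, of which 2 overlap at the start. The Hes5 window and that of Notch2 each carry 41 CG dinucleotides, more than 96.5% of all windows, against a median of 7. These letters describe the windows and are not binding sites measured here.

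Hey1, a Hes relative induced by Notch, lies on chromosome 3 from 8663359 to 8667256. Hey1 measured in WT 2.87 and 1.79 CPM at D0, 1.01 and 0.699 at D2, 5.92 and 4.35 at D4, 10.9 and 11.7 at D6, 30.5 and 32.2 at D8. Hey1 measured in TKO 1.71 and 1.32 CPM at D0, 0.823 and 0.682 at D2, 12.6 and 12.5 at D4, 27.1 and 32.4 at D6, 20.1 and 22.2 at D8. It fell to about 1 CPM at D2 in WT and rose at each interval after it, by 2.77-fold over the last. TKO rose 16.5-fold from D2 to D4 beside 6.14-fold in WT, from 17 to 26 counts per library at D2. These sizes rest on those few counts, and the difference between the steps was not tested. TKO fell after D6 (-0.49 ± 0.14 SE on the log2 scale, adjusted p = 0.00825). That last fall no longer passed without TKO D6 replicate 2 (-0.35, adjusted p = 0.111) or TKO D8 replicate 1 (-0.42, adjusted p = 0.0805).

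Hes6, the proneural-induced antagonist, lies on chromosome 1 from 91411483 to 91414038. WT libraries gave Hes6 at 15.2 and 13.5 CPM at D0, 48.2 and 51.3 at D2, 18.1 and 16.1 at D4, 52.3 and 55.2 at D6, 93.2 and 87.5 at D8. TKO libraries gave Hes6 at 16.5 and 15.4 CPM at D0, 81.9 and 75.5 at D2, 32.3 and 28.5 at D4, 51.9 and 70.5 at D6, 84.4 and 78.4 at D8. Hes6 was up at D2, when Hes1 was down, by 3.47-fold in WT and 4.94-fold in TKO. It fell back to D4 (-1.54 ± 0.12 SE on the log2 scale, adjusted p = 2.63e-09) in WT and (-1.37 ± 0.11 SE on the log2 scale, adjusted p = 7.77e-09) in TKO and rose again to D6. It was the one member that rose in TKO from D6 to D8 (0.41 ± 0.11 SE on the log2 scale, adjusted p = 0.00391), a call that ended without TKO D6 replicate 1 (0.21, adjusted p = 0.105), the lower of 2 widely spaced libraries.

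**Figure D2:**
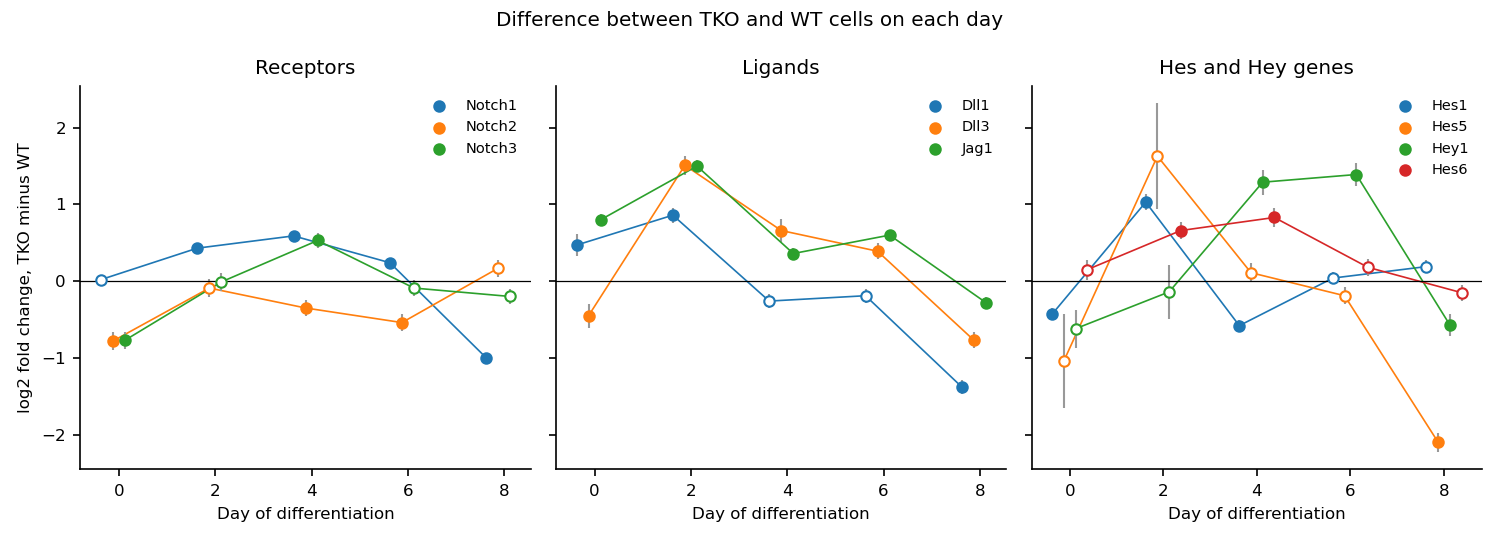
Fitted log2 fold change of TKO minus WT on each day, with the standard error as bars, for receptors, ligands and Hes and Hey genes; filled points passed at an adjusted p under 0.05 and open points did not. Members lie above and below 0 at D0, on or above it for every called member at D2, and below it for every called member at D8.

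At D0 the members already differed between the stem cells. Of 10 members, 2 were higher and 4 lower in TKO, beside 39.3% of genes (19.4% higher and 19.9% lower) called among all tested. Jag1 was higher (0.80 ± 0.077 SE on the log2 scale, adjusted p = 3.44e-07). Notch2 (-0.78 ± 0.12 SE on the log2 scale, adjusted p = 4.67e-05), Notch3 (-0.77 ± 0.11 SE on the log2 scale, adjusted p = 3.64e-05) and Hes1 (-0.43 ± 0.077 SE on the log2 scale, adjusted p = 0.000247) were lower. Dll1 (higher, 0.47 on the log2 scale) and Dll3 (lower, -0.45) were called at levels between 3.62 and 7.11 CPM in TKO and 4.26 and 5.87 in WT. Both calls ended without WT D0 replicate 2 (0.26 with adjusted p = 0.248, and -0.25 with adjusted p = 0.333). They also ended without TKO D0 replicate 1 (adjusted p = 0.0865 and 0.112) or without TKO D0 replicate 2 (adjusted p = 0.0614 and 0.0984). Hey1 missed the threshold (-0.62, adjusted p = 0.0553) and passed without WT D0 replicate 2 (-0.92, adjusted p = 0.0095) or either WT D4 library (adjusted p = 0.0397 and 0.0426). Notch1 was at a log2 fold change of 0.02 (SE 0.057). Endoderm markers moved with this comparison, 8 of 8 higher in TKO and summing to between 288 and 319.7 against 18.7 and 26.1 in WT, with Afp and Ttr at 0 in WT at D0, and their part in it was not tested.

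At D2 the called members were all higher in TKO, 6 of 10, beside 35.3% of genes (18.4% higher and 16.9% lower) called. All 3 ligands were among them: Dll3 (1.51 ± 0.13 SE on the log2 scale, adjusted p = 8.89e-08), Jag1 (1.5 ± 0.082 SE on the log2 scale, adjusted p = 3.93e-10) and Dll1 (0.86 ± 0.098 SE on the log2 scale, adjusted p = 2.58e-06). Hes1, at its low point in both genotypes, stood 2.04-fold higher in TKO (adjusted p = 7.86e-07), and Hes6 1.58-fold higher (adjusted p = 0.000144). Notch1 was higher (0.43 ± 0.06 SE on the log2 scale, adjusted p = 2.68e-05), but with counts rebuilt from TPM the value was -0.20 (adjusted p = 0.479). The Notch1 coding transcript held 98.1% of the gene's counts at WT D2 and 99.1% at TKO D2. Its share of the gene's summed TPM was 37.1% and 40.4% in the WT libraries and 79.7% and 48.3% in the TKO libraries. The part of these shares in the value was not tested. Notch2 and Notch3 did not pass, at -0.09 (SE 0.11) and -0.01 (SE 0.11). Hes5, under 1 CPM, did not pass (1.63, adjusted p = 0.0761) and did without WT D2 replicate 1 (3.48, adjusted p = 0.0171). Endoderm markers again summed higher in TKO, between 251 and 342 against 21.6 and 25.3 (8 of 8 higher), and neuron markers between 418 and 457 against 276 and 283 (6 of 8 higher). Mesenchyme (41.9 and 46.6 against 14.8 and 16.5) and epithelium and trophoblast markers (47.8 and 52.2 against 27.2 and 32.3) also summed higher. Pluripotent stem cell markers summed lower in TKO (1733 and 1972.5 against 2453 and 2705.5). Neural progenitor (352 and 362 against 368 and 376) and astrocyte and oligodendrocyte markers (12.3 and 14.1 against 19.3 and 19.3) did too. The part of these markers in the result was not tested.

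At D4 the count was the highest of the 5 days, with 6 members higher and 2 lower in TKO, beside 28.3% of genes (15.1% higher and 13.2% lower). Hey1 led (1.29 ± 0.16 SE on the log2 scale, adjusted p = 1.45e-05), followed by Hes6 (0.83 ± 0.12 SE on the log2 scale, adjusted p = 4.96e-05) and Dll3 (0.66 ± 0.14 SE on the log2 scale, adjusted p = 0.00229). Also higher were Notch1 (0.59 ± 0.057 SE on the log2 scale, adjusted p = 6.56e-07), Notch3 (0.53 ± 0.1 SE on the log2 scale, adjusted p = 0.000866) and Jag1 (0.36 ± 0.068 SE on the log2 scale, adjusted p = 0.000657). Hes1 was lower (-0.58 ± 0.076 SE on the log2 scale, adjusted p = 2.03e-05). Hes5 did not pass, at 0.11 (SE 0.12), so of the 3 Hes and Hey targets 1 was higher, 1 lower and 1 not called. Of the endoderm markers 6 of 8 were higher in TKO. Of the neuron markers 5 of 8 were higher and 1 lower. Their sum was nevertheless lower in TKO, at 248 and 259 CPM against 343 and 358 in WT. Neural progenitor markers were 4 lower and 2 higher of 8. The part of these markers in the result was not tested. Notch2 was lower (-0.35 ± 0.11 SE on the log2 scale, adjusted p = 0.024), a call that ended without WT D4 replicate 1 (-0.39, adjusted p = 0.052), WT D4 replicate 2 (-0.30, 0.131), TKO D4 replicate 1 (-0.29, 0.161) or TKO D4 replicate 2 (-0.40, 0.0564). Dll1 just missed (-0.26, adjusted p = 0.0517) and passed without either WT D0 library (adjusted p = 0.0236 and 0.0224) or either TKO D6 library (0.0165 and 0.0186). Dll3 did not pass with counts rebuilt from TPM (0.58, adjusted p = 0.0608).

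At D6, of 10 members, 4 were higher and 1 lower in TKO, beside 41.3% of genes (20.9% higher and 20.3% lower). Hey1 (1.39 ± 0.15 SE on the log2 scale, adjusted p = 8.56e-07) and Jag1 (0.60 ± 0.068 SE on the log2 scale, adjusted p = 1.68e-06) were higher and Notch2 (-0.54 ± 0.11 SE on the log2 scale, adjusted p = 0.000732) lower. Dll3 (0.39 ± 0.1 SE on the log2 scale, adjusted p = 0.0047) and Notch1 (0.24 ± 0.056 SE on the log2 scale, adjusted p = 0.00213) were called higher. The call of Dll3 ended without WT D6 replicate 2 (0.27, adjusted p = 0.0828) or TKO D6 replicate 2 (0.27, adjusted p = 0.0904), and that of Notch1 without TKO D6 replicate 2 (0.17, adjusted p = 0.0559) or with counts rebuilt from TPM (0.25, adjusted p = 0.313). Notch3, Dll1, Hes1, Hes5 and Hes6 did not pass, with log2 fold changes between -0.19 and 0.18. In TKO 8 of 8 pluripotent stem cell markers, 7 of 8 endoderm markers, 7 of 8 epithelium and trophoblast markers, 6 of 8 neuron markers and 6 of 7 endothelium markers tested were higher. Of the neural progenitor markers 5 of 8 were lower and 2 higher. The part of these markers in the result was not tested. Without TKO D6 replicate 2, Dll1 (-0.37, adjusted p = 0.00425) and Hes5 (-0.36, adjusted p = 0.0405) passed as lower, and Dll1 also without WT D0 replicate 1 (-0.20, adjusted p = 0.0498). Without TKO D6 replicate 1, Hes6 passed as higher (0.39, adjusted p = 0.0052).

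At D8 the direction was the other way, with 0 members higher and 6 lower in TKO, beside 67.5% of genes (35.8% higher and 31.8% lower) called. The share of members called was thus no higher than that of all genes. Hes5 had the largest difference of all days with 4.28-fold less in TKO (-2.1 ± 0.12 SE on the log2 scale, adjusted p = 7.41e-11). It was followed by Dll1 (-1.38 ± 0.093 SE on the log2 scale, adjusted p = 4.58e-10), Notch1 (-1.0 ± 0.056 SE on the log2 scale, adjusted p = 3.8e-11) and Dll3 (-0.77 ± 0.1 SE on the log2 scale, adjusted p = 2.76e-06). Hey1 (-0.57 ± 0.14 SE on the log2 scale, adjusted p = 0.00185) and Jag1 (-0.28 ± 0.069 SE on the log2 scale, adjusted p = 0.00177), which had been higher in TKO at D6, were lower too. Hes1 (0.19, adjusted p = 0.0504), Notch2 (0.17), Notch3 (-0.20) and Hes6 (-0.15) did not pass. In a fit of the 4 D8 libraries alone these 4 passed, Hes1 at 0.17, Notch2 at 0.15, Notch3 at -0.21 and Hes6 at -0.17. The share of all genes called in that fit is not given here. Hes1 passed as higher also without either library of WT D0, WT D6 or TKO D6, or without TKO D8 replicate 1 (adjusted p from 0.0303 to 0.0478), and Notch3 as lower without WT D0 replicate 1 (adjusted p = 0.00121) or replicate 2 (0.00231). Marker lists moved with this day. In TKO 8 of 8 pluripotent stem cell markers were higher and 8 of 8 neuron markers lower. Of the neural progenitor markers 6 of 8 were lower and 1 higher, and 7 of 8 epithelium and trophoblast markers were higher, summing to between 396 and 403 against 213 and 215. The part of these cells in the result was not tested. Pou5f1, the stem cell factor Oct4, averaged 526 ± 37.5 CPM in TKO and 12.5 ± 7.13 in WT.

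**Figure D3:**
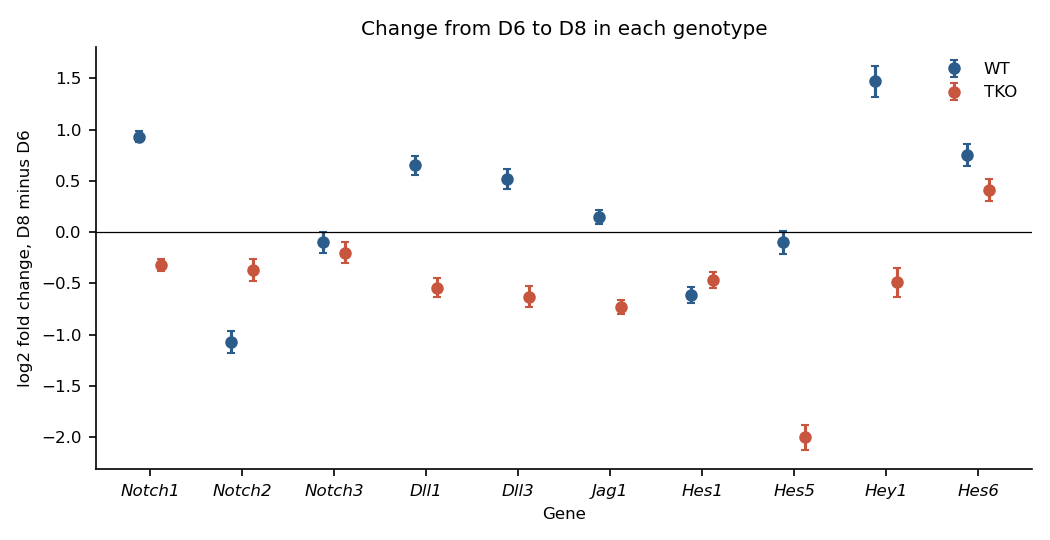
Fitted log2 fold change from D6 to D8 for each member in WT (blue) and TKO (red), with the standard error as bars. Notch1, Dll1, Dll3 and Hey1 lie above 0 in WT and below 0 in TKO, and Hes5 lies near 0 in WT and at -2.0 in TKO.

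Within a genotype, all 10 members passed from D2 to D4. In WT 8 rose and 2 fell, beside 61.9% of genes (31.8% higher and 30.1% lower) called. In TKO 7 rose and 3 fell, Dll1 joining Dll3 and Hes6 among those that fell, beside 61.9% of genes (31.6% higher and 30.3% lower). From D4 to D6, 7 members rose and 2 fell in WT, beside 53.4% of genes (27.3% higher and 26.0% lower). In TKO 6 rose and 0 fell over that interval, beside 48.1% of genes (24.7% higher and 23.4% lower). From D6 to D8, 5 rose and 2 fell in WT, beside 57.0% of genes (26.6% higher and 30.4% lower). In TKO 1 rose and 8 fell, beside 50.0% of genes (25.5% higher and 24.5% lower). The first interval, D0 to D2, gave 2 that rose and 6 that fell in WT, beside 54.7% of genes (25.8% higher and 28.9% lower). In TKO 5 rose and 3 fell over it, beside 53.6% of genes (26.6% higher and 26.9% lower). In TKO from D0 to D2 the fall of Hey1 (-1.0) ended without TKO D0 replicate 1 (-0.81, adjusted p = 0.106) or TKO D2 replicate 2 (-0.89, adjusted p = 0.07), and in WT Dll3 passed as higher without WT D0 replicate 2 (0.49, adjusted p = 0.0255). Without either WT D0 library Notch3 passed as a ninth fall in TKO from D6 to D8 (adjusted p = 0.00239 and 0.00219).

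The difference between the genotypes in the last interval was tested itself. The change from D6 to D8 in TKO minus that in WT passed for 7 of 10 members, 6 lower and 1 higher, beside 49.9% of genes (25.5% higher and 24.4% lower). It was -1.96 for Hey1 (SE 0.2, adjusted p = 4.26e-07), -1.91 for Hes5 (SE 0.17, adjusted p = 4.85e-08) and -1.24 for Notch1 (SE 0.079, adjusted p = 1.68e-09). For the ligands it was -1.19 for Dll1 (SE 0.13, adjusted p = 6.7e-07), -1.16 for Dll3 (SE 0.14, adjusted p = 2.87e-06) and -0.88 for Jag1 (SE 0.097, adjusted p = 7.37e-07). Notch2 went the other way, at 0.70 (SE 0.16, adjusted p = 0.0011), WT having fallen by more than TKO. Notch3, Hes1 and Hes6 did not pass, and Hes6 did without TKO D6 replicate 1 (-0.53, adjusted p = 0.00207). In the same comparison 8 of 8 neuron markers were lower (median -2.54), as were 6 of 8 endoderm markers, 5 of 7 mesenchyme markers tested and 5 of 8 neural progenitor markers (2 higher), while 4 of 8 pluripotent stem cell markers were higher and 2 lower. The part of these markers in it was not tested. The comparison shares its D6 and D8 libraries with those of each day above.

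Over the earlier stretch from D0 to D6, the change in TKO minus that in WT passed for 6 members, 5 higher and 1 lower, beside 30.0% of genes (15.8% higher and 14.2% lower). Of the 5 higher, Hey1 differed most (2.01 ± 0.29 SE on the log2 scale, adjusted p = 4.1e-05), then Dll3 (0.84 ± 0.19 SE on the log2 scale, adjusted p = 0.00245), Notch3 (0.68 ± 0.15 SE on the log2 scale, adjusted p = 0.00267) and Hes1 (0.47 ± 0.11 SE on the log2 scale, adjusted p = 0.00327). The mean of Hes1 was lower at D6 than at D0 in both genotypes, 37.4 after 55 CPM in WT and 38.4 after 40.7 in TKO. Notch3 and Hes1 were lower in TKO at D0 (-0.77 and -0.43) and did not pass at D6 (-0.09 and 0.04). Dll1 gained less in TKO (-0.66 ± 0.17 SE on the log2 scale, adjusted p = 0.00779), a call that ended without WT D0 replicate 2 (-0.45, adjusted p = 0.0738). The call for Notch1 (0.22, adjusted p = 0.0424) ended under 16 of the 28 alternatives, among them the fit without TKO D6 replicate 2 (0.16, adjusted p = 0.197). Leaving out 1 of 11 other libraries ended it too: WT D0 replicate 2 (0.103), both of WT D2 (0.0561 and 0.056), WT D6 replicate 1 (0.117), both of WT D8 (0.0578 and 0.059), TKO D0 replicate 1 (0.165), both of TKO D4 (0.0523 and 0.0525) and both of TKO D8 (0.059 and 0.0587). In this comparison 8 of 8 pluripotent stem cell markers and 6 of 8 epithelium and trophoblast markers were higher, and 5 of 8 endoderm and 4 of 8 neural progenitor markers lower (1 of the latter higher), and their part in it was not tested. Without TKO D6 replicate 2 Notch2 passed as higher (0.43, adjusted p = 0.0357).

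**Figure D4:**
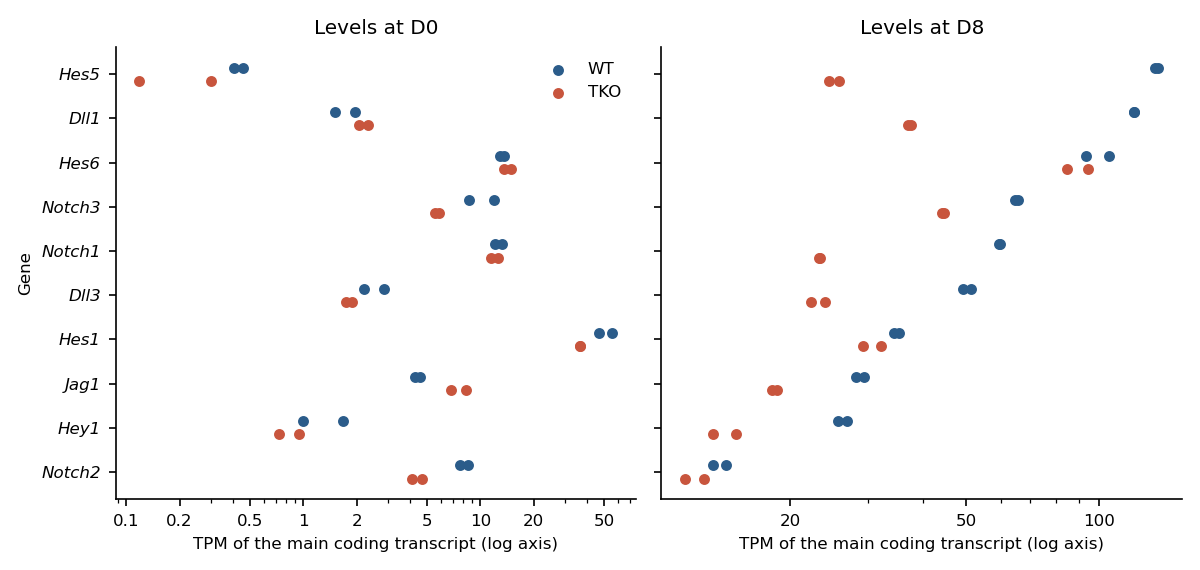
TPM of the main coding transcript of each member (log axis) at D0 (left) and D8 (right), with a point for every WT (blue) and TKO (red) library, ordered by the WT D8 mean. Hes1 is the highest member at D0 in both genotypes, and at D8 Hes5 is the highest in WT and Hes6 in TKO; with TPM summed over all transcripts of a gene, Dll1 is the highest in WT at D8.

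Levels of different genes were set beside each other per transcript length, as deposited TPM (transcripts per 1e+06) of the coding transcript with most counts, a measure chosen after the values were seen. With TPM summed over all transcripts of a gene the order differed: at D8 in WT Dll1 (241 ± 10.7 TPM) stood above Hes5 (192 ± 1.26) and Notch1 (155 ± 6.02), and at D0 Notch1 stood above Hes6 in both genotypes. At D0 in WT the stem cells carried above all Hes1, at 51.2 ± 6.33 TPM, followed by Hes6 at 13.2 ± 0.502 TPM and Notch1 at 12.7 ± 0.849 TPM, which overlapped, and Hes5 was last at 0.431 ± 0.0335 TPM. The D0 order in TKO also began with Hes1 (36.3 ± 0.0283 TPM), Hes6 (14.3 ± 0.983 TPM) and Notch1 (12 ± 0.75 TPM). By D8 in WT the order was Hes5 (135 ± 1.7 TPM), Dll1 (120.2 ± 0.0707 TPM), Hes6 (99.3 ± 8.42 TPM), Notch3 (65 ± 0.7 TPM) and Notch1 (59.4 ± 0.219 TPM), each apart from the next in both libraries. In TKO at D8 Hes6 came first (89.6 ± 6.97 TPM), before Notch3 (44.4 ± 0.403 TPM) and Dll1 (37.2 ± 0.325 TPM), and Hes5 was the fifth (25.1 ± 0.955 TPM). The mean TPM of Hes1 at D8 was higher in WT (34.8 ± 0.7 TPM) than in TKO (30.6 ± 2.11 TPM), the opposite order to its CPM after TMM scaling, so TPM is used here between genes and not between genotypes. Notch2 was the last of the 10 at D8 in both genotypes (13.8 ± 0.651 TPM in WT and 12.1 ± 0.834 TPM in TKO).

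The members are part of a longer pathway, and 50 other genes of it in 8 lists were tested alike, lists that were written with earlier results of these data known. In TKO against WT, 9 were higher and 16 lower at D0, so that 50% were called beside 39.3% of all genes. At D2 the counts were 18 and 7 (50% beside 35.3%), at D4 12 and 9 (42% beside 28.3%), at D6 8 and 20 (56% beside 41.3%) and at D8 8 and 31 (78% beside 67.5%). Their medians were -0.14, 0.16, 0.03, -0.16 and -0.54 on the log2 scale beside medians of all genes within 0.04 of 0. The counts of single lists that follow are to be read beside 20.9% of all genes higher and 20.3% lower at D6, and 35.8% higher and 31.8% lower at D8. Among the other receptors and ligands (6 genes, 4 lower and 1 higher at D8), Dll4, the Delta ligand best known from vessels, was lower at D8, at 1.55 ± 0.456 CPM in TKO and 7.03 ± 0.731 in WT (log2 fold change -2.17, adjusted p = 1.13e-07). Dner, a neuronal transmembrane protein with Delta-like repeats, was 15.3 ± 2.71 CPM in TKO and 3.84 ± 0.521 in WT (log2 fold change 1.98, adjusted p = 3.3e-08) at D6. At D8 it was 21.8 ± 0.164 CPM in TKO and 74.4 ± 0.831 in WT (log2 fold change -1.77, adjusted p = 2.4e-09). Dlk2 was higher at D6 below 1 CPM, at 0.620 ± 0.0164 CPM in TKO and 0.145 ± 0.0761 in WT (log2 fold change 2.09, adjusted p = 0.00548). Endothelial markers summed higher in TKO at D8, at 69.1 and 71.4 CPM beside 14 and 14.5 in WT, with Emcn at 0 in both, and their part in these values was not tested.

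The Fringe glycosyltransferases, which tune how receptors respond to Delta and Jagged, were listed with the O-fucose and O-glucose transferases. Of these 5 genes 4 were lower and 0 higher at D6, and 4 lower and 1 higher at D8. Lfng was 46.2 ± 5.25 CPM in TKO and 96.3 ± 4.91 in WT (log2 fold change -1.06, adjusted p = 1.21e-07) at D6. At D8 it was 20.1 ± 0.131 CPM in TKO and 64.4 ± 1.96 in WT (log2 fold change -1.68, adjusted p = 1.18e-10). Mfng was 16 ± 1.31 CPM in TKO and 38.5 ± 0.769 in WT (log2 fold change -1.27, adjusted p = 6.75e-09) at D8. Rfng was 22.8 ± 1.69 CPM in TKO and 28.7 ± 0.243 in WT (log2 fold change -0.33, adjusted p = 0.00133) at D6. Of the 4 ubiquitin ligases that drive ligand endocytosis, 2 were lower and 1 higher at D8. Mib1, needed for ligand signalling, was 182 ± 0.605 CPM in TKO and 302 ± 7.95 in WT (log2 fold change -0.73, adjusted p = 3.62e-07) at D8. Neurl1a, of whose 31-mers 10.1% lie in other genes too, was 17.3 ± 0.0232 CPM in TKO and 10.5 ± 0.649 in WT (log2 fold change 0.73, adjusted p = 1.72e-06) on that day. At D6, Neurl1b was 5.37 ± 0.299 CPM in TKO and 2.42 ± 0.0391 in WT (log2 fold change 1.15, adjusted p = 7.32e-05). On the same day Mib2 was 27.4 ± 0.319 CPM in TKO and 38.6 ± 0.657 in WT (log2 fold change -0.50, adjusted p = 0.0026).

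Of the 10 receptor cleavage genes, 7 were lower and 1 higher at D8, beside 67.5% of all genes called. At D6, 2 were lower and 0 higher, a smaller share than the 41.3% of all genes. The largest differences were in the gamma-secretase subunit genes Aph1b and Aph1c at D8. Aph1b was 6.81 ± 0.288 CPM in TKO and 20.1 ± 1.02 in WT (log2 fold change -1.56, adjusted p = 3.02e-07). Aph1c was 0.993 ± 0.069 CPM in TKO and 2.53 ± 0.196 in WT (log2 fold change -1.34, adjusted p = 0.000617). These paralogs share 24.8% and 25.3% of their 31-mers with other genes, so that their split is uncertain. At D6 Psen2, a catalytic presenilin, was 6.01 ± 0.265 CPM in TKO and 8.08 ± 0.0342 in WT (log2 fold change -0.43, adjusted p = 0.0167). Ncstn, the substrate-binding subunit, was 98.5 ± 0.455 CPM in TKO and 113 ± 4.63 in WT (log2 fold change -0.20, adjusted p = 0.0107). Of the 6 nuclear complex genes, 4 were lower and 0 higher at D8 and 2 lower at D6. Maml3, a Mastermind coactivator, was 32.7 ± 0.102 CPM in TKO and 50.2 ± 6.55 in WT (log2 fold change -0.62, adjusted p = 0.000164) at D6. Maml3 at D8 was 24.4 ± 1.54 CPM in TKO and 81.9 ± 0.249 in WT (log2 fold change -1.75, adjusted p = 1.7e-10). Maml2 was 13.6 ± 0.508 CPM in TKO and 19.5 ± 0.136 in WT (log2 fold change -0.52, adjusted p = 0.00529) at D8. Maml1 was 73.9 ± 1.91 CPM in TKO and 90.4 ± 1.01 in WT (log2 fold change -0.29, adjusted p = 0.0272) at D6.

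Of the 9 inhibitors and turnover genes, 5 were lower and 1 higher at each of D6 and D8. Nrarp, a feedback inhibitor that Notch itself induces, was 49.7 ± 0.469 CPM in TKO and 185 ± 3.63 in WT (log2 fold change -1.9, adjusted p = 7.08e-10) at D8, and 78.2% of its 31-mers lie in other genes too, so its counts are uncertain. Dtx3, of the Deltex ubiquitin ligases, was 76 ± 3.36 CPM in TKO and 151 ± 5.53 in WT (log2 fold change -0.99, adjusted p = 1.86e-09) at D6. Dtx3 at D8 was 54.7 ± 3.88 CPM in TKO and 139 ± 2.87 in WT (log2 fold change -1.35, adjusted p = 7.47e-12). Dtx1 was 7.54 ± 0.688 CPM in TKO and 3.06 ± 0.122 in WT (log2 fold change 1.3, adjusted p = 2.29e-07) at D6.

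The 5 other Hes and Hey genes gave 1 higher and 1 lower at D6 and 2 higher and 1 lower at D8. Hes3 was 11.2 ± 0.5 CPM in TKO and 6.17 ± 0.473 in WT (log2 fold change 0.87, adjusted p = 0.000463) at D8. Hes2 was 0.836 ± 0.158 CPM in TKO and 1.75 ± 0.422 in WT (log2 fold change -1.07, adjusted p = 0.0358) at D6. At D8 it was 0.352 ± 0.194 CPM in TKO and 1.79 ± 0.00367 in WT (log2 fold change -2.36, adjusted p = 0.00012). Hey2 was 1.99 ± 0.0212 CPM in TKO and 0.602 ± 0.0375 in WT (log2 fold change 1.72, adjusted p = 0.000143) at D6.

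Hes proteins repress through some members of the Groucho family. Of the 5 genes of this family listed, 4 were lower and 1 higher at D8 and 2 higher and 3 lower at D6. Tle1 was 32.1 ± 0.449 CPM in TKO and 103 ± 0.567 in WT (log2 fold change -1.68, adjusted p = 4.61e-13) at D8. Tle2 was 1.35 ± 0.227 CPM in TKO and 0.408 ± 0.109 in WT (log2 fold change 1.7, adjusted p = 0.000531) at D6. Tle2 at D8 was 2.16 ± 0.237 CPM in TKO and 8.28 ± 1.16 in WT (log2 fold change -1.93, adjusted p = 9.41e-07). Aes was 45.7 ± 5.07 CPM in TKO and 23.3 ± 1.52 in WT (log2 fold change 0.97, adjusted p = 3.18e-06) at D6.

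The proneural factors, which Hes proteins repress and which induce Dll1 and Hes6, gave 2 higher of 7 at D2, 3 higher at D4, 2 lower at D6 and 5 lower at D8 in TKO, with no calls in the other direction on these days. Of all genes, 18.4% were higher at D2 and 15.1% at D4. The counts of this list at D0 are not given here. Neurog2 was 4.95 ± 0.197 CPM in TKO and 15.4 ± 3.11 in WT (log2 fold change -1.64, adjusted p = 5.63e-05) at D6. At D8 it was 2.68 ± 0.0274 CPM in TKO and 24.9 ± 3.14 in WT (log2 fold change -3.22, adjusted p = 8.87e-09). Neurog1 was 28.5 ± 5 CPM in TKO and 43 ± 1.39 in WT (log2 fold change -0.59, adjusted p = 0.00131) at D6. Neurod4 was 2.9 ± 0.538 CPM in TKO and 25.5 ± 3.45 in WT (log2 fold change -3.13, adjusted p = 3.02e-09) at D8.

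**Figure D5:**
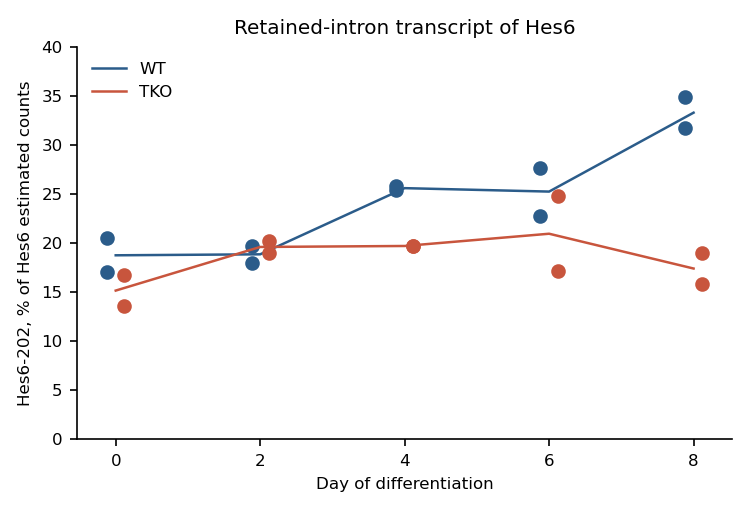
Share of the estimated counts of Hes6 assigned to its retained-intron transcript, in percent, against the day of differentiation, with a point for every library and lines through the means of WT (blue) and TKO (red). The WT D8 libraries are at 31.7% and 34.9% and the TKO D8 libraries at 15.8% and 19.0%.

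For most members nearly all counts went to 1 coding transcript, 99.2% to 99.8% over all libraries for the receptors and 89.2% to 96.2% for the ligands, Hes1, Hes5 and Hey1. Hes6 was the exception, with 75.6% on the coding transcript and 22.8% on one annotated with a retained intron. The share of the latter was 20.5% and 17.0% at D0 in WT and 13.6% and 16.7% in TKO, and at D8 it was 31.7% and 34.9% in WT against 15.8% and 19.0% in TKO. On the CPM scale of the gene total (share times CPM, a measure added after the values were seen), the retained-intron transcript stood at 29.6 and 30.5 in the WT D8 libraries and 13.3 and 14.9 in the TKO D8 libraries, lower in both TKO libraries. The coding transcript stood at 61.1 and 54 in WT and 70.5 and 62.6 in TKO, where both libraries lay above both WT libraries. No test was made on these estimates, whose precision rests on how reads were divided between transcripts of 1 gene.

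Genes with a like profile were looked for among 2347 that varied (SD of at least 1) over the groups, by Pearson correlation of log2(CPM + 1) over the 10 group means, as a description of libraries that share days and composition. Closest to Notch1 were Vav3 (r = 0.972), Nova2 (0.967) and Rgmb (0.967). Closest to Dll1 were Adgrb2 (0.983), Btbd17 (0.977) and Slc7a11 (0.976). Closest to Hes5 were Itgb8 (0.997), Pou3f2 (0.996), a POU factor of neural progenitors and neurons, and Kcna6 (0.995). Closest to Hes6 were Atcay (0.926), Insm1 (0.917), a zinc finger factor of newborn neurons, and Gadd45g (0.9). Between members, Hes5 was most like Notch3 (r = 0.971) and Hey1 (0.919), and Hes6 was most like Dll3 (0.837) and Dll1 (0.796), and its r with Hes1 was -0.558.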

How the data were processed

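RNA of 20 libraries (TruSeq Stranded mRNA) was quantified by the authors. Trim Galore 0.6.2, kallisto and the build GRCm38 (mm10) are named per the submitters' processing notes. The deposited tables give estimated counts and TPM per transcript, per the file headers. The length columns of the same tables served to rescale counts in 1 alternative. Of 119414 transcripts, 116728 were matched by identifier to GENCODE M21 (116161 in the same version), and unmatched ones held 0.943% to 1.1% of the counts. Estimated counts were summed over 35975 genes and rounded.

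One edgeR 4.0.16 quasi-likelihood fit (R 4.3.3) of all 20 libraries, with a mean per group, TMM scaling and the filter filterByExpr, covered 18555 genes, with 10 residual degrees of freedom and Benjamini-Hochberg adjustment over them in each of 15 comparisons. The standard error is the absolute log2 fold change over the square root of F. The fit was tested on simulated data. DESeq2 1.42.0, other scalings, filters and fits and each library left out were alternatives. The members and lists were chosen with earlier results of these data known. All members are named. Of the other lists, up to 2 passing genes with the largest change at each of D6 and D8 are named, and the 3 genes most like Notch1, Dll1, Hes5 and Hes6.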

Additional observations from a re-analysis of the deposited data

Results flagged for a closer look

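For 13 results the test of the difference itself separated the genotypes, that is, the change over an interval differed between TKO and WT at an adjusted p under 0.05 in edgeR's quasi-likelihood test. From D0 to D6 the change in TKO minus that in WT was 0.22 for Notch1, 0.68 for Notch3, -0.66 for Dll1, 0.84 for Dll3, 0.47 for Hes1 and 2.01 for Hey1, on the log2 scale. From D6 to D8 it was -1.24 for Notch1, 0.70 for Notch2, -1.19 for Dll1, -1.16 for Dll3, -0.88 for Jag1, -1.91 for Hes5 and -1.96 for Hey1. Notch1, Dll3 and Hey1 are in both sets with opposite signs, above 0 before D6 and below 0 after it. The sets share the D6 libraries, which end the first change and begin the second. Scatter at D6 therefore moves the values of the 2 sets in opposite directions. From D0 to D6 the call for Notch1 ended under 16 of the 28 alternatives, and that for Dll1 under 2.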

How the results depend on the processing

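The 150 member results were recomputed under 28 alternatives, which gave 4168 values. Of these, 4015 kept direction and side of the threshold, 62 lost the call, 47 gained one and 44 changed sign. Of the 14 results that changed sign, 1 was called, Notch1 in TKO against WT at D2, at -0.20 with counts rebuilt from TPM. With those counts the others were Hes5 in WT from D6 to D8 (0.05), Hey1 at D2 (0.37), Jag1 in TKO from D0 to D2 (0.15) and from D4 to D6 (-0.03), and Jag1 in the D0 to D6 difference (0.03). With RLE scaling and with DESeq2, the TKO steps from D4 to D6 were 0.01 and 0.01 for Hes1 and 0.00 and 0.00 for Notch2. For Jag1 that step was 0.00 without the low-count filter and -0.01 over protein-coding genes. Notch3 at D2 was 0.01 in a fit of the compared groups. Leaving out each library in turn, TKO against WT ranged from -0.03 to 0.05 for Notch1 at D0, from -0.40 to 0.10 for Hey1 and from -0.05 to 0.02 for Notch3 at D2, and from -0.04 to 0.11 for Hes1 and from -0.05 to 0.39 for Hes6 at D6. The TKO steps ranged from -0.11 to 0.06 for Jag1 from D0 to D2, and from D4 to D6 from -0.10 to 0.05 for Hes1, -0.09 to 0.10 for Jag1 and -0.24 to 0.16 for Notch2. The WT step from D0 to D2 of Notch2 ranged from -0.02 to 0.11 and the D0 to D6 difference of Hes6 from -0.20 to 0.24. Genes called at D4 numbered 3355 to 5973, the lowest without TKO D4 replicate 2. At D8, Hes1, Notch2, Notch3 and Hes6 passed in a fit of the compared groups, and the share of all genes called in it is not given here. Apart from leaving out libraries and fewer groups, the cause of these changes was not tested. Same-numbered libraries of different groups did not deviate together (r from -0.0413 to 0.0527, median 0.00774, over 45 pairs of groups), although 9 of 10 groups correlated better with the same number than with the other, and the replicate block changed no member call. No scaling moved the median of all genes by 0.1 on the log2 scale.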

Other observations

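Part of the gene-summed TPM of Notch1 came from very short transcripts. The counts rebuilt from TPM start from that sum, and its part in the changed Notch1 calls was not tested. In the first WT D2 library the coding transcript had 6.07 TPM, and a Notch1 transcript with an effective length of 31.9 bases had 6.25 TPM from 4 estimated counts. The coding transcript held 99.2% of the Notch1 counts over all libraries.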
